A study of Rattus norvegicus with 12 samples.

Results

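The aminotransferases described here are Got1, Got2, Gpt, Gpt2, Tat and Agxt, the 6 genes of the deposited rat liver table whose symbols were on a list of aminotransferases that includes the liver injury enzymes. They are 6 of 33744 genes in the table, and 6 of 6 passed the filter on low counts that left 13687 genes for testing. The study exposed livers of male Sprague Dawley rats to 30 min of warm ischemia after cardiac arrest, a model of donation after circulatory death (DCD), and compared ways of keeping the graft afterwards. RNA-seq was performed on tissue of the left liver graft taken before a simulated transplantation, in 12 livers, 3 in each of 4 groups. HOPE 1 h grafts were stored cold for 3 h in histidine-tryptophan-ketoglutarate solution and then perfused cold for 1 h through the portal vein with oxygenated solution. HMP 1 h grafts were stored and perfused for the same times with no oxygenation. SCS 4 h grafts were kept in static cold storage for 4 h, and WI 30 min grafts had warm ischemia and nothing further, so that the unperfused livers include 3 that were never stored cold. All 12 livers therefore carried the warm ischemia, no liver without it entered the comparison, and the 6 perfused livers (HOPE 1 h and HMP 1 h) can be set against the 6 unperfused livers (SCS 4 h and WI 30 min).

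Aminotransferases move an amino group from an amino acid to a keto acid, with pyridoxal phosphate as the cofactor, and hepatocytes hold large amounts of them. Aspartate aminotransferase (AST) is made by Got1 in the cytosol and by Got2 in mitochondria, and both take part in the malate-aspartate shuttle, which carries reducing equivalents into mitochondria. Alanine aminotransferase (ALT) is made by Gpt (ALT1, mainly cytosolic) and Gpt2 (ALT2, mitochondrial), which link alanine to pyruvate for gluconeogenesis. AST and ALT escape from injured hepatocytes and are measured in blood or perfusate as signs of injury, as they were in the perfusate of this study, whereas the values here are mRNA levels in the tissue and not enzyme release. Tat, tyrosine aminotransferase, starts tyrosine breakdown and is a classic glucocorticoid-induced liver gene, and Agxt makes alanine-glyoxylate aminotransferase, which removes glyoxylate.

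In the authors' annotation (build Rnor_6.0), Got1 (ENSRNOG00000016356) lies on chromosome 1 from 263246248 to 263269762 on the minus strand and Got2 (ENSRNOG00000011782) on chromosome 19 from 9587653 to 9613340 on the plus strand. Gpt (ENSRNOG00000033915) lies on chromosome 7 from 117759083 to 117761931 on the plus strand and Gpt2 (ENSRNOG00000059579) on chromosome 19 from 22590881 to 22632071 on the minus strand. Tat (ENSRNOG00000016348) lies on chromosome 19 from 41675355 to 41686229 on the minus strand and Agxt (ENSRNOG00000023856) on chromosome 9 from 100281339 to 100291291 on the plus strand. All 6 are annotated as protein coding, and each value covers the whole gene.

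The 250 bases before the start of Got1, Got2 and Gpt2 are shown because the livers order these mRNAs in different ways, as described below: Got1 and Gpt2 had the same order of the 4 group means, with HOPE 1 h highest and SCS 4 h lowest, and Got2, whose enzyme catalyses the same reaction as that of Got1, had SCS 4 h highest and HOPE 1 h lowest. For Gpt2 the order rests on HMP liver 1, without which HMP 1 h was above HOPE 1 h (log2 fold change of HOPE 1 h against HMP 1 h −0.074). Without HOPE liver 2, Got1 was higher in WI 30 min than in HOPE 1 h (HOPE 1 h against WI 30 min −0.068). Without HMP liver 2, Got1 was lower in HMP 1 h than in SCS 4 h (HMP 1 h against SCS 4 h −0.17). For Got2, HOPE 1 h was above HMP 1 h without HOPE liver 3 (HOPE 1 h against HMP 1 h 0.040). The sequences are from RefSeq on build GRCr8, 5′ to 3′ on the gene's strand, and capitals mark CCAAT, the letters of the CCAAT box, read on either strand (ATTGG in reverse). The windows are chr1:252329872-252330121 on the minus strand for Got1, chr19:9180178-9180427 on the plus strand for Got2 and chr19:37732760-37733009 on the minus strand for Gpt2.
Got1: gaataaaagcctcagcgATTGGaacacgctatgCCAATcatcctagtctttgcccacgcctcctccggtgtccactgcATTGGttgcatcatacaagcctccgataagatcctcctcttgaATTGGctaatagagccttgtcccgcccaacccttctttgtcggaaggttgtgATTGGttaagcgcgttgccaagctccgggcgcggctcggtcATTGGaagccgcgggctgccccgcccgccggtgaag
Got2: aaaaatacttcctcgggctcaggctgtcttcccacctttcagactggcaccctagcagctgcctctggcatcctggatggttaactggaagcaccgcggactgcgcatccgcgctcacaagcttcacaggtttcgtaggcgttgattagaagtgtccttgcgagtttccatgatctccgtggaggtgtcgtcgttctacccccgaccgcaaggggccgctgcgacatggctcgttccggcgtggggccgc
Gpt2: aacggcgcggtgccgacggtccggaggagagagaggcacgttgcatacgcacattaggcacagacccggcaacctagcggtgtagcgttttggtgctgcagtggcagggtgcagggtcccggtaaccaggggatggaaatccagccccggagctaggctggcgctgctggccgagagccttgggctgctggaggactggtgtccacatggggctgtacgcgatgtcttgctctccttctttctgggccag
The Got1 window held 6 CCAAT matches that did not overlap each other, and those of Got2 and Gpt2 held 0. Of 33469 rat promoter windows of the same length, 34.0% held at least 1 such match and 0.0329% (11 windows) held at least 6. The GC content was 56.8% in the Got1 window, 59.6% in the Got2 window and 63.6% in the Gpt2 window, against a median of 51.2% over all windows. The Tat window held 3 matches, which 2.52% of windows reached, and of the 2 Agxt windows 1 held a single match. CCAAT was 1 of 4 motifs counted on both strands, and was chosen for display after the counts were seen. GGGCGG (the GC box) had 2 matches in the Got1 window, neither overlapping a CCAAT match, which 14.8% of windows reached, and 0 in the others. TATAAA (the TATA box) had 0 in every window, and TGTTCT (letters of the glucocorticoid receptor element) had 1 in the other Agxt window, which 17.5% of windows reached, and 0 elsewhere, Tat included. A match is a description of the letters and not a site of binding.

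The libraries held 15262961 to 18343167 counts, and values are given as CPM (counts scaled to a common library size after TMM normalization), or as the deposited FPKM (fragments scaled by gene length and library size) where genes are compared with each other. HMP liver 1 and HOPE liver 3 stood apart from the rest. Mitochondrially encoded genes took 18.7% of counts in HMP liver 1 and 10.2% in HOPE liver 3, against 4.79 to 9.20% in the other livers. The summed level of 7 Kupffer cell markers was 1358 CPM in HMP liver 1 and 812 CPM in HOPE liver 3, against 368 to 587 CPM elsewhere. The 5 stellate cell markers summed to 1682 and 1108 CPM, against 468 to 929 CPM elsewhere, and the 5 sinusoidal endothelial markers in the table (of 6 listed) to 622 and 686 CPM, against 266 to 429 CPM. The 7 hepatocyte markers, led by Alb, were detected in every liver and summed to 136428 to 215586 CPM, where HOPE liver 3 (147076 CPM) and HMP liver 1 (147259.7 CPM) were lower than all but SCS liver 2. The 4 erythroid markers summed to 260 to 2541 CPM in HOPE 1 h, HMP 1 h and SCS 4 h livers and 3386 to 4577 CPM in WI 30 min livers. The 5 bile duct markers summed to 13.8 to 31.0 CPM with 1 marker at 0 in 8 livers (Krt7 in 7 of them), the 3 neutrophil markers to at most 1.60 CPM and the 3 muscle markers in the table to at most 0.286 CPM. In bulk tissue, fewer cells of a type and less RNA per cell cannot be told apart.

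All 6 genes were strongly expressed, with 1298 counts in the lowest value (Gpt2 in HMP liver 1) and 33878 in the highest (Tat in HOPE liver 3). Per length, Tat averaged 552 FPKM over the 12 livers and took place 125 among the tested genes. Got1 averaged 230.3 FPKM (place 317), Got2 215 FPKM (place 331), Gpt 127 FPKM (place 529), Agxt 109 FPKM (place 622) and Gpt2 72.3 FPKM (place 891). Tat had the highest FPKM of the 6 in 10 of 12 livers, and Got1 led it in HOPE liver 2 and WI liver 2. Gpt2 had the lowest FPKM in 10 of 12 livers, and Agxt in the other 2, HOPE livers 2 and 3. Together the 6 genes made up 0.171% of the HMP liver 1 library and 0.247 to 0.346% of the others.

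**Figure D1:**
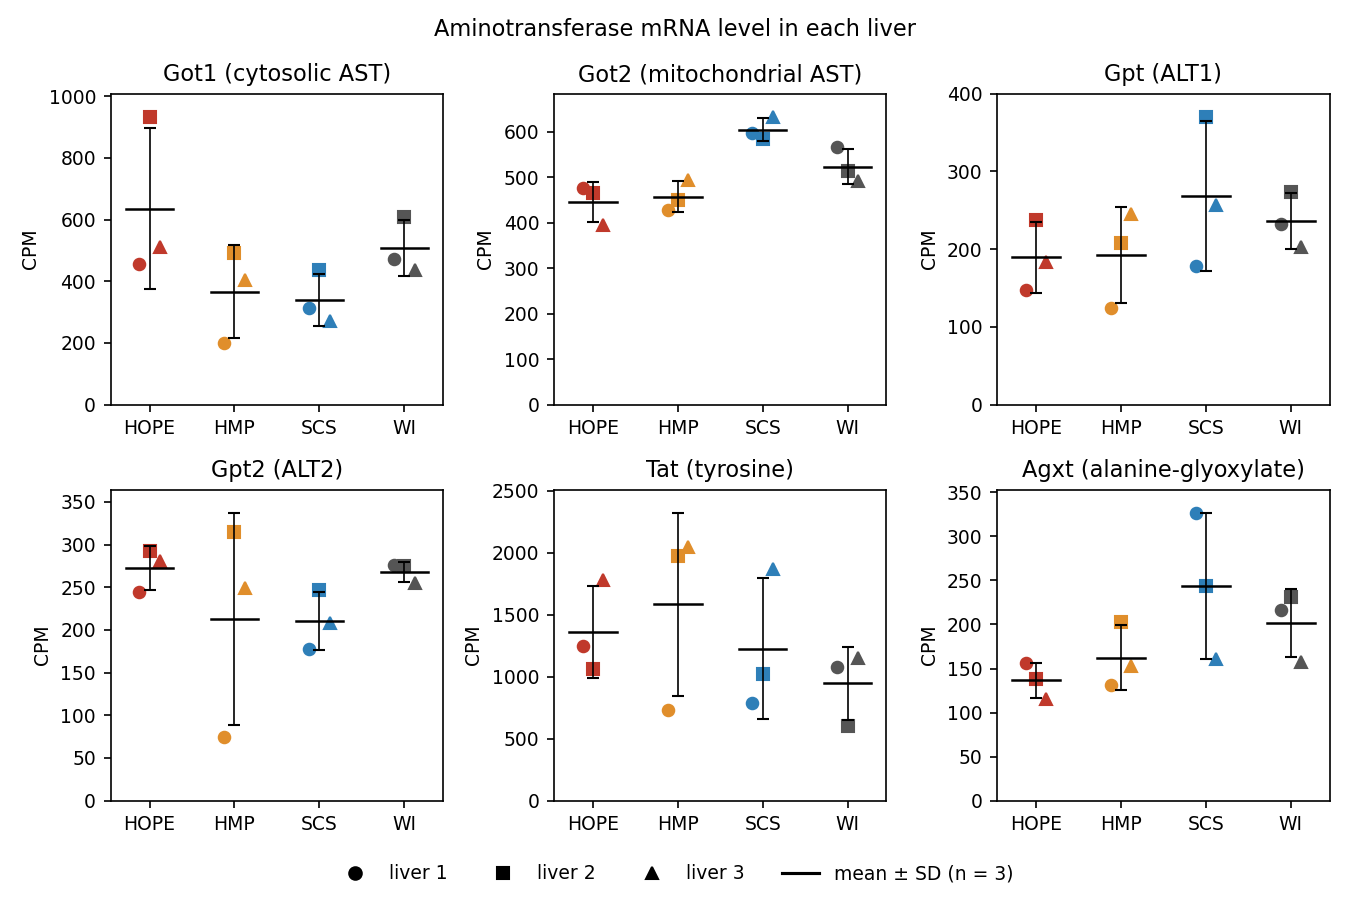
Normalised level (CPM, vertical axes from 0) of each aminotransferase mRNA in each of the 12 livers, by group, with 1 symbol per liver and the mean ± SD (n = 3) as lines. Got2 livers lie close together within each group, with 598, 583 and 633 CPM in SCS 4 h above all other livers, whereas HMP liver 1 is lowest of all for Got1 (199.9 CPM), Gpt (124 CPM) and Gpt2 (74.1 CPM).

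Got1, the cytosolic AST, was highest in HOPE 1 h livers and lowest in SCS 4 h livers, but no difference passed the adjusted threshold. Its level was 457, 934 and 512 CPM in HOPE livers 1, 2 and 3, 199.9, 492 and 405 CPM in HMP livers, 312, 435 and 271 CPM in SCS livers and 474, 609.6 and 438 CPM in WI livers. Each HOPE liver was above each SCS liver, each SCS liver was below each WI liver, and HOPE liver 2 stood well above all others. The group means were 634 ± 261 CPM in HOPE 1 h, 366 ± 150.1 CPM in HMP 1 h, 339 ± 85.4 CPM in SCS 4 h and 507 ± 90.6 CPM in WI 30 min (SD, n = 3 each). In the order HOPE 1 h, WI 30 min, HMP 1 h, SCS 4 h, from high to low, each group overlapped the next. In HOPE 1 h against SCS 4 h the log2 fold change was 0.90 (standard error, SE, 0.343, Benjamini-Hochberg adjusted p = 0.373 by the quasi-likelihood F test of edgeR), and without HOPE liver 2 it was 0.51. Against HMP 1 h the log2 fold change in HOPE 1 h was 0.79 (SE 0.342, edgeR adjusted p = 0.638), and it was 0.41 without HOPE liver 2, 0.47 without HMP liver 1 and 0.61 without the 2 livers that stood apart. Against WI 30 min the log2 fold change was 0.32 in HOPE 1 h (95% interval −0.42 to 1.07), and it turned to −0.068 without HOPE liver 2. HMP 1 h against SCS 4 h it was 0.11 (95% interval −0.63 to 0.85), and it turned to −0.17 without HMP liver 2.

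Got2, the mitochondrial AST, ran the other way: it was lower in both perfused groups than in SCS 4 h and varied least of the 6 genes. Its level was 475, 464 and 394 CPM in HOPE livers, 428, 449 and 494 CPM in HMP livers, 598, 583 and 633 CPM in SCS livers and 566, 512 and 491 CPM in WI livers. Each HOPE liver was below each unperfused liver, and each SCS liver was above all 9 others. Between the perfused and the unperfused livers the only overlap was HMP liver 3 at 494 CPM, against WI liver 3 at 491 CPM. The means were 444 ± 43.9 CPM in HOPE 1 h, 457 ± 33.7 CPM in HMP 1 h, 604 ± 25.9 CPM in SCS 4 h and 523 ± 38.5 CPM in WI 30 min (SD, n = 3 each). From high to low the order was SCS 4 h, WI 30 min, HMP 1 h, HOPE 1 h. In this order SCS 4 h and WI 30 min were the only neighbours that did not overlap. The log2 fold change against SCS 4 h was −0.44 in HOPE 1 h (SE 0.126, adjusted p = 0.288) and −0.40 in HMP 1 h (SE 0.125, adjusted p = 0.183), both by edgeR and both short of the threshold. Perfused livers averaged 451 ± 35.7 CPM and unperfused livers 564 ± 53.3 CPM (SD, n = 6 each), a log2 fold change of −0.32 (SE 0.0887, edgeR adjusted p = 0.109). Leaving out each liver in turn kept this value between −0.35 and −0.28, and it was −0.25 without the 2 livers that stood apart. HOPE 1 h and HMP 1 h did not separate, with a log2 fold change of −0.040 and a 95% interval of −0.31 to 0.23.

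Gpt, which encodes ALT1, was lower on average in both perfused groups than in both unperfused groups, with wide overlap. Its level was 147, 238 and 184 CPM in HOPE livers, 124, 207 and 246 CPM in HMP livers, 178, 371 and 257 CPM in SCS livers and 233, 274 and 203 CPM in WI livers. SCS liver 2 was the highest and HMP liver 1 the lowest, and every pair of groups overlapped. The means were 189 ± 45.5 CPM in HOPE 1 h, 192 ± 62.0 CPM in HMP 1 h, 269 ± 96.6 CPM in SCS 4 h and 236 ± 35.9 CPM in WI 30 min (SD, n = 3 each). Perfused against unperfused livers the log2 fold change was −0.40 (95% interval −0.85 to 0.053, edgeR adjusted p = 0.341), and −0.25 without SCS liver 2. HOPE 1 h against HMP 1 h gave −0.023, with a 95% interval of −0.66 to 0.62, and ran between −0.28 (without HMP liver 1) and 0.17 (without HMP liver 3).

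Gpt2, the mitochondrial ALT, had the same order of group means as Got1, and HMP liver 1 stood far below the rest. Its level was 244, 293 and 281 CPM in HOPE livers, 74.1, 315 and 249 CPM in HMP livers, 178, 246 and 208 CPM in SCS livers and 276, 274 and 255 CPM in WI livers. HMP liver 1 was the lowest of all, HMP liver 2 was the highest of all, and each SCS liver was below each WI liver. The means were 273 ± 25.5 CPM in HOPE 1 h, 213 ± 125 CPM in HMP 1 h, 211 ± 34.3 CPM in SCS 4 h and 268 ± 11.9 CPM in WI 30 min (SD, n = 3 each). HOPE 1 h against HMP 1 h the log2 fold change was 0.36 (95% interval −0.45 to 1.16), and without HMP liver 1 it was −0.074. HMP 1 h against SCS 4 h it was 0.015 (95% interval −0.79 to 0.82), and it was 0.44 without HMP liver 1. Perfused livers averaged 243 ± 86.8 CPM and unperfused livers 239 ± 39.0 CPM (SD, n = 6 each), a log2 fold change of 0.020 with a 95% interval of −0.55 to 0.59.

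Tat had the highest mean in HMP 1 h and the lowest in WI 30 min, and it had the largest SD of log2 CPM within groups of the 6 genes. Its level was 1244, 1065 and 1777 CPM in HOPE livers, 728, 1972 and 2049 CPM in HMP livers, 786, 1022 and 1869 CPM in SCS livers and 1081, 606 and 1152 CPM in WI livers. Each of the 3 cold-preserved groups held at least 1 liver above every WI liver, the highest of which had 1152 CPM, and every pair of groups overlapped. The means were 1362 ± 371 CPM in HOPE 1 h, 1583 ± 741 CPM in HMP 1 h, 1225 ± 569 CPM in SCS 4 h and 946 ± 297 CPM in WI 30 min (SD, n = 3 each). HMP 1 h against WI 30 min the log2 fold change was 0.74 (SE 0.42, edgeR adjusted p = 0.449), and it ran between 0.50 (without WI liver 2) and 1.10 (without HMP liver 1). HOPE 1 h against WI 30 min it was 0.53 (95% interval −0.39 to 1.44), and 0.28 without WI liver 2. HOPE 1 h against HMP 1 h it was −0.22 (95% interval −1.13 to 0.69), −0.82 without the 2 livers that stood apart and −0.00017 without HMP liver 3.

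Agxt, the glyoxylate-removing enzyme, was lower in HOPE 1 h than in both unperfused groups. Its level was 156, 138 and 115 CPM in HOPE livers, 131, 203 and 153 CPM in HMP livers, 327, 244 and 161 CPM in SCS livers and 216, 231 and 157 CPM in WI livers. Each HOPE liver was below each SCS and each WI liver, most narrowly HOPE liver 1 and WI liver 3, and SCS liver 1 was the highest of all. The means were 136 ± 20.3 CPM in HOPE 1 h, 162 ± 37.1 CPM in HMP 1 h, 244 ± 83.2 CPM in SCS 4 h and 202 ± 39.0 CPM in WI 30 min (SD, n = 3 each), each group overlapping the next. HOPE 1 h against SCS 4 h the log2 fold change was −0.84 (SE 0.255, edgeR adjusted p = 0.294), and without SCS liver 1 it was −0.57. HOPE 1 h against WI 30 min it was −0.56 (SE 0.254, edgeR adjusted p = 0.573), and HMP 1 h against SCS 4 h it was −0.59 (SE 0.254, edgeR adjusted p = 0.318) and −0.32 without SCS liver 1. Perfused livers averaged 149 ± 30.3 CPM and unperfused livers 223 ± 62.6 CPM (SD, n = 6 each), a log2 fold change of −0.57 (SE 0.18, edgeR adjusted p = 0.143) that was −0.45 without the 2 livers that stood apart.

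**Figure D2:**
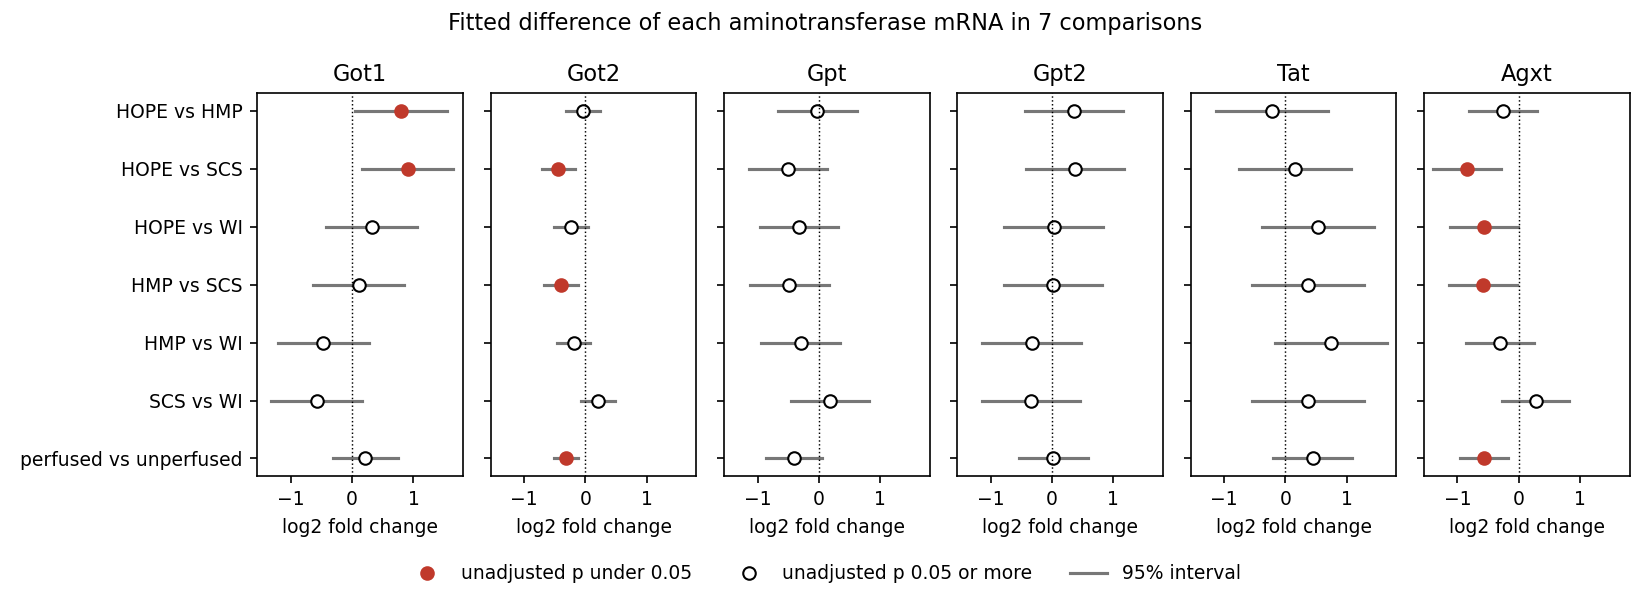
Fitted log2 fold change (horizontal axes, first-named group over the second) of each aminotransferase in 7 comparisons, with its 95% interval, filled where the unadjusted p was under 0.05. Filled points lie above 0 for Got1 in HOPE 1 h (0.79 against HMP 1 h, 0.90 against SCS 4 h) and below 0 for Got2 and Agxt, and none passed the adjusted threshold.

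Across the 7 comparisons edgeR's quasi-likelihood test called 0 of the 6 genes at an adjusted p under 0.05, against 0.00% of all tested genes in each pair of groups and 1.02% (140 genes) between perfused and unperfused livers. DESeq2 called 1 of 6 for HOPE 1 h against SCS 4 h and 1 of 6 for HMP 1 h against SCS 4 h (Got2 in both), 2 of 6 for perfused against unperfused livers (Got2 and Agxt), and 0 of 6 in the other 4 comparisons. Over all genes DESeq2 called 1.49% for HOPE 1 h against SCS 4 h, 3.16% for HMP 1 h against SCS 4 h and 5.53% for perfused against unperfused livers. It called 0.139% for HOPE 1 h against HMP 1 h, 0.709% for HOPE 1 h against WI 30 min, 2.85% for HMP 1 h against WI 30 min and 0.110% for SCS 4 h against WI 30 min. At an unadjusted p under 0.05 edgeR had 3 of 6 genes for HOPE 1 h against SCS 4 h (Got1, Got2 and Agxt), where 10.9% of all genes did so. It had 2 of 6 for HMP 1 h against SCS 4 h (14.5% of all genes), 2 of 6 for perfused against unperfused livers (17.7%), 1 of 6 for HOPE 1 h against HMP 1 h (7.48%) and 1 of 6 for HOPE 1 h against WI 30 min (8.57%). It had 0 of 6 for HMP 1 h against WI 30 min (13.8%) and 0 of 6 for SCS 4 h against WI 30 min (4.77%). Comparisons that share a group share its livers, so these counts are not separate evidence.

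The groups did not overlap for 3 of 6 genes in HOPE 1 h against SCS 4 h (19.2% of all genes), 2 of 6 in HOPE 1 h against WI 30 min (16.2%), 1 of 6 in HMP 1 h against SCS 4 h (17.9%) and 3 of 6 in SCS 4 h against WI 30 min (13.0%). They overlapped for every one of the 6 in HOPE 1 h against HMP 1 h (11.1% of all genes did not overlap), in HMP 1 h against WI 30 min (16.0%) and in perfused against unperfused livers (1.83%). The median log2 fold change of the 6 genes was −0.15 for HOPE 1 h against SCS 4 h, beside 0.038 over all genes, and −0.15 for perfused against unperfused livers, beside 0.030. It was −0.30 for HMP 1 h against WI 30 min, beside 0.029 over all genes, and 0.20 for SCS 4 h against WI 30 min, beside 0.014. These medians mix genes of opposite sign: against SCS 4 h, HOPE 1 h had positive values for Got1, Gpt2 and Tat and negative ones for Got2, Gpt and Agxt.

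The 6 genes differed in how tightly livers of a group agreed. The SD of log2 CPM within groups was 0.109 for Got2, lower than in all but 3.67% of tested genes, against a median of 0.292 over all genes. It was 0.355 for Agxt, 0.42 for Gpt, 0.49 for Got1, 0.577 for Gpt2 and 0.618 for Tat. Among genes within 0.5 of each gene's mean log2 CPM, the share with a lower SD was 5.63% for Got2, 84.8% for Agxt, 87.1% for Got1, 88.8% for Gpt, 92.1% for Tat and 93.7% for Gpt2. From the lowest to the highest liver the span was 1.61-fold for Got2, 2.83-fold for Agxt, 2.98-fold for Gpt, 3.38-fold for Tat, 4.25-fold for Gpt2 and 4.67-fold for Got1.

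The balance of the AST pair also differed between livers, and is given here per length as a description with no test. Got1 made up 53.2, 70.4 and 60.5% of the summed Got1 and Got2 FPKM in HOPE livers, 35.6, 56.4 and 49.2% in HMP livers, 38.1, 46.8 and 33.5% in SCS livers and 49.7, 58.4 and 51.3% in WI livers. Got1 was the larger of the pair in each HOPE liver and the smaller in each SCS liver, and HMP and WI livers lay on both sides of an equal share. The mean share was 61.4 ± 8.63% in HOPE 1 h, 47.0 ± 10.6% in HMP 1 h, 39.5 ± 6.75% in SCS 4 h and 53.1 ± 4.64% in WI 30 min (SD, n = 3 each). The summed level of the pair was 499 ± 130.1 FPKM in HOPE 1 h, 379 ± 85.8 FPKM in HMP 1 h, 424 ± 34.9 FPKM in SCS 4 h and 478 ± 51.1 FPKM in WI 30 min (SD, n = 3 each).

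For the ALT pair, Gpt made up 53.5, 60.8 and 55.5% of the summed Gpt and Gpt2 FPKM in HOPE livers, 76.2, 55.7 and 65.3% in HMP livers, 65.7, 74.2 and 70.3% in SCS livers and 61.8, 65.6 and 60.3% in WI livers. Each SCS liver was above each HOPE and each WI liver, Gpt was the larger of the pair in all 12 livers, and HMP liver 1 had the highest share. The mean share was 56.6 ± 3.76% in HOPE 1 h, 65.8 ± 10.3% in HMP 1 h, 70.1 ± 4.25% in SCS 4 h and 62.6 ± 2.73% in WI 30 min (SD, n = 3 each). The ratio of the AST pair to the ALT pair, both in FPKM, averaged 2.64 in HOPE 1 h, 2.32 in HMP 1 h, 2.06 in SCS 4 h and 2.20 in WI 30 min. It ran between 2.23 and 2.96 in HOPE livers, 1.91 and 3.002 in HMP livers (highest in HMP liver 1), 1.62 and 2.62 in SCS livers and 2.18 and 2.22 in WI livers, so that HMP and SCS livers overlapped HOPE livers.

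**Figure D3:**
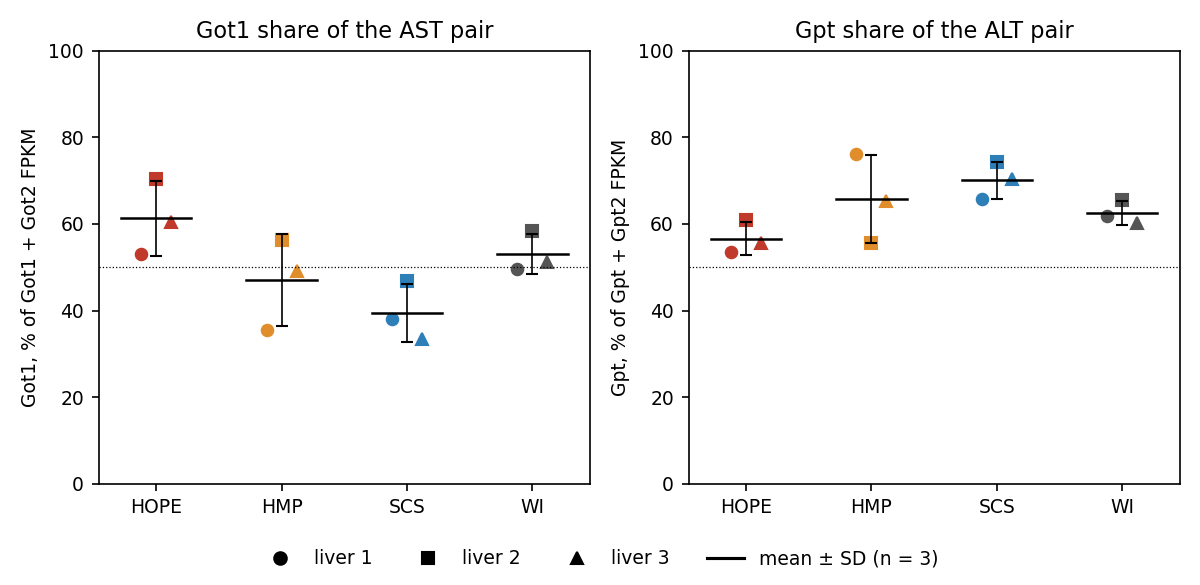
Share of Got1 in the summed Got1 and Got2 FPKM (left) and of Gpt in the summed Gpt and Gpt2 FPKM (right) in each liver, in percent from 0 to 100, with 1 symbol per liver, the mean ± SD (n = 3) as lines and a dotted line at an equal share. HOPE livers have Got1 shares of 53.2 to 70.4%, above the 33.5 to 46.8% of SCS livers, and Gpt shares of 53.5 to 60.8%, below the 65.7 to 74.2% of SCS livers.

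Over the 12 livers Got1 and Gpt2 had the largest Pearson r of any pair of the 6 (0.805 on log2 CPM, Spearman rho = 0.874), and r was 0.765 without HMP liver 1. After the group means were taken out it was 0.789, and Got1 and Gpt then had the largest value, 0.820. With the group means left in, Got1 and Gpt had r = 0.405, and 0.0699 without HMP liver 1. The values after the group means were taken out were not computed without HMP liver 1. Got2 and Agxt had r = 0.689, which was 0.208 after the group means were taken out. Got1 and Got2 had r = −0.227, which was −0.603 without HMP liver 1 and turned to 0.215 after the group means were taken out. These are descriptions of 12 livers that share depth, normalization and cell content. The mean centred level of the tested Kupffer, sinusoidal endothelial, stellate and bile duct markers had r between −0.0422 (Tat) and −0.642 (Gpt2) with the 6 genes. For Gpt2 it was 0.0677 without HMP liver 1. For Got1 it was −0.396, and 0.0876 without HMP liver 1, and for Gpt −0.449, and −0.0494 without HMP liver 1. For Tat it was 0.357 without HMP liver 1. For Agxt it was −0.547, and −0.481 without HMP liver 1, and for Got2 −0.505, and −0.387 without HMP liver 1. The log2 share of mitochondrially encoded counts had r = −0.593 with Got2, −0.605 with Gpt, −0.669 with Agxt and −0.675 with Gpt2, and −0.274 with Got1 and −0.197 with Tat. HMP liver 1 had the highest share (18.7%), and these r were not computed without it. The part of these cell types and of the mitochondrial share in the values was not tested.

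The genes most like each aminotransferase were searched among 9116 genes with a mean of at least 5 CPM, by Pearson r over the 12 livers. For Got1 they were Wdr59 (r = 0.897) and Mat1a, which makes S-adenosylmethionine in hepatocytes (r = 0.857), and 0.831 and 0.855 without HMP liver 1. For Got2 they were the secreted phosphoprotein Spp2 (r = 0.934), the elongation factor homolog Elof1 (r = 0.929) and Wdr83os (r = 0.924). For Gpt they were Tmem223 (r = 0.864), Nipsnap1 (r = 0.856) and Gstz1, an enzyme of tyrosine breakdown (r = 0.856). Without HMP liver 1 the values for Gpt were 0.821, 0.772 and 0.771. For Gpt2 they were Lrp3 (r = 0.937) and Cyb5b, a cytochrome b5 of the outer mitochondrial membrane (r = 0.915). Without HMP liver 1 the values for Gpt2 were 0.779 and 0.816. For Agxt they were Tmem234 (r = 0.928), Naprt, an enzyme of NAD synthesis from nicotinic acid (r = 0.918), and Dnph1 (r = 0.918).

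Tat went with 3 genes of amino acid and glucose metabolism: Slc38a2, a neutral amino acid transporter (r = 0.924), Klf15, a transcription factor of amino acid breakdown and gluconeogenesis (r = 0.916), and Pck1, the cytosolic phosphoenolpyruvate carboxykinase of gluconeogenesis (r = 0.878). Without HMP liver 1 these were 0.912, 0.942 and 0.867. Pck1 was also on the list of glucocorticoid-induced genes described below.

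**Figure D4:**
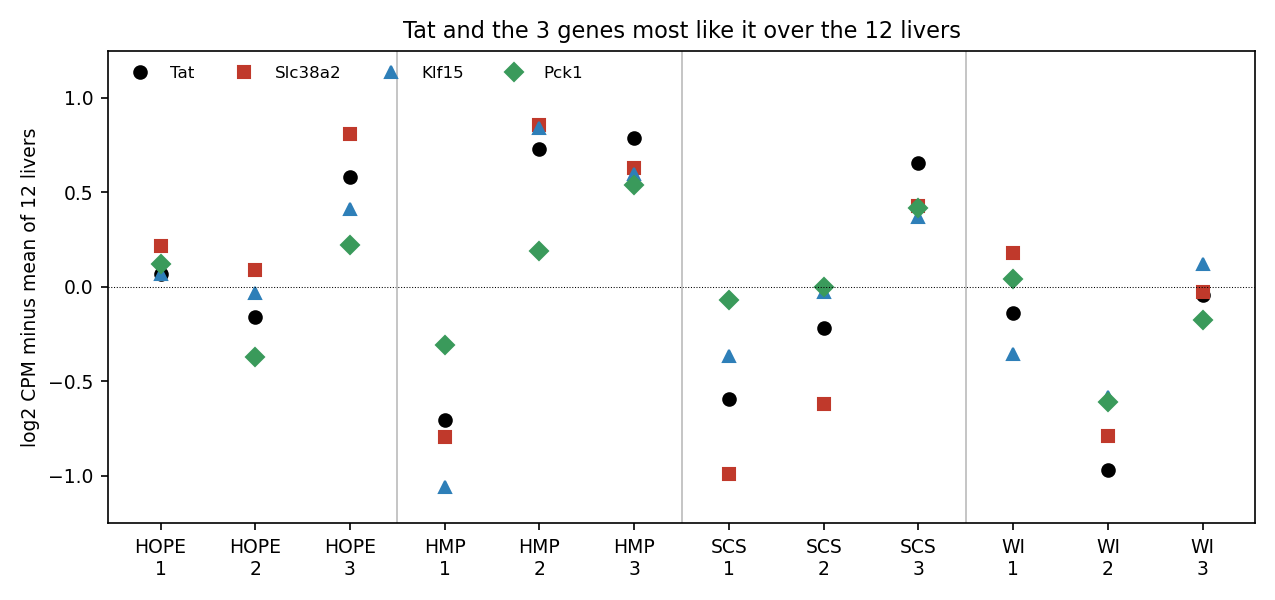
Level of Tat and of Slc38a2, Klf15 and Pck1 in each of the 12 livers, as log2 CPM minus the gene's mean over the livers, with 1 symbol per gene. The 4 genes are below their means in HMP liver 1 and WI liver 2 and above them in HOPE liver 3, HMP livers 2 and 3 and SCS liver 3, and the correlation with Tat is 0.924 for Slc38a2, 0.916 for Klf15 and 0.878 for Pck1.

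The other aminotransferases of the table, 12 tested of 15 listed, included 1 called gene. Kyat1, kynurenine aminotransferase 1, fell in perfused livers with a log2 fold change of −0.70 against unperfused livers (SE 0.143, edgeR adjusted p = 0.0456). Its level was 28.1, 44.3 and 30.0 CPM in HOPE livers, 23.7, 33.0 and 23.0 CPM in HMP livers, 51.2, 47.4 and 43.0 CPM in SCS livers and 58.1, 52.7 and 41.5 CPM in WI livers. HOPE liver 2 alone among perfused livers reached the range of unperfused livers. Of the 12 genes 0 rose and 1 fell past the threshold, beside 1.02% of all genes called in either direction, and the median was −0.0068, beside 0.030 over all genes. The call was kept in 3 of 12 edgeR fits that each left out 1 liver, with adjusted p between 0.0306 and 0.127, and lost without HOPE liver 1 or 3, HMP liver 1 or 3, any SCS liver, or WI liver 1 or 2.

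Among the partners of Got1 and Got2 in the malate-aspartate shuttle and in glutamate handling, 7 tested of 8 listed, Mdh2, the mitochondrial malate dehydrogenase, fell in perfused livers. Its level was 155, 178 and 159 CPM in HOPE livers, 137, 134 and 161 CPM in HMP livers, 227, 218 and 237 CPM in SCS livers and 261, 180.1 and 213 CPM in WI livers. Each perfused liver was below each unperfused liver, most narrowly HOPE liver 2 and WI liver 2. The log2 fold change was −0.54 (SE 0.102, edgeR adjusted p = 0.0409), and the call was kept in 3 of 12 fits that each left out 1 liver, with adjusted p between 0.0383 and 0.113, and lost without any HOPE liver, HMP liver 1 or 2, any SCS liver, or WI liver 1. The cytosolic Mdh1 had a log2 fold change of −0.42 (edgeR adjusted p = 0.139), short of the threshold. Of the 7 genes 0 rose and 1 fell past the threshold, beside 1.02% of all genes called in either direction. Negative values were found for 6 of them, beside 45.3% of all genes, and the median was −0.12, beside 0.030 over all genes.

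Of 6 tested genes of 8 listed for other enzymes measured in injury panels, Ldha, which encodes the A subunit of lactate dehydrogenase, fell in perfused livers. Its level was 1055, 1047 and 977 CPM in HOPE livers, 1017, 872 and 975 CPM in HMP livers, 2138, 1692 and 1939 CPM in SCS livers and 2218, 1773 and 1328 CPM in WI livers. Each perfused liver was below each unperfused liver. The log2 fold change was −0.90 (SE 0.131, edgeR adjusted p = 0.0169), the call was kept in 7 of 12 fits that each left out 1 liver (adjusted p between 0.00523 and 0.0596) and lost without HOPE liver 1 or 3, SCS liver 1 or 2, or WI liver 1, and without the 2 livers that stood apart the value was −0.90 with an adjusted p of 0.0351. Of the 6 genes 0 rose and 1 fell past the threshold, beside 1.02% of all genes called in either direction. Among them 3 had positive and 3 negative values, and the median was −0.082, beside 0.030. None of the AST and ALT mRNAs passed this test, and the difference between them and Ldha was not tested.

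**Figure D5:**
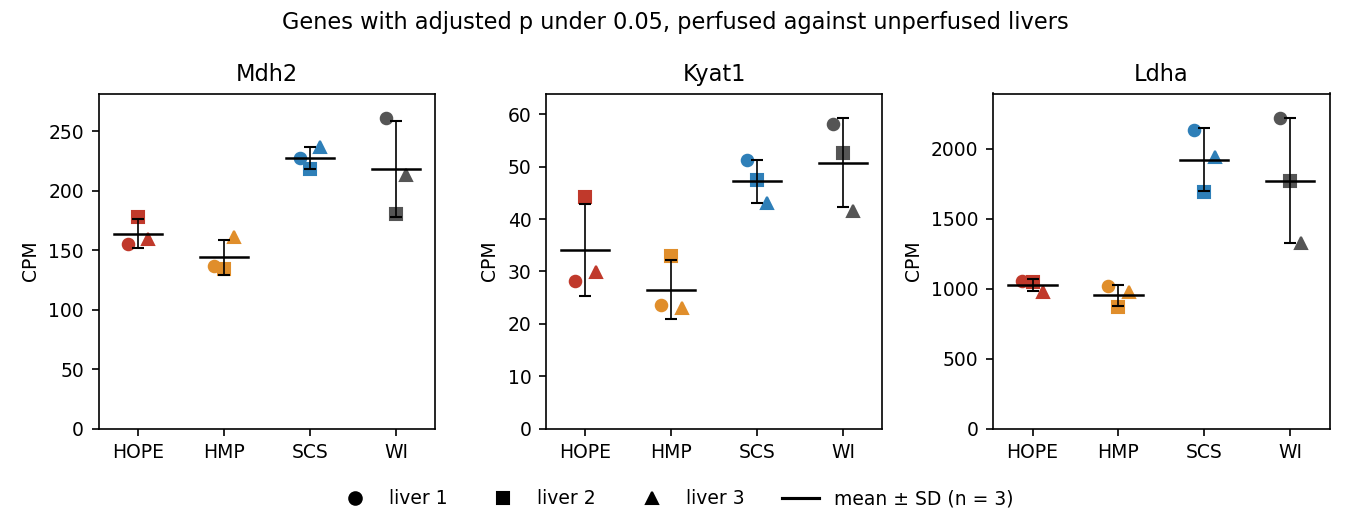
Normalised level (CPM, vertical axes from 0) of Mdh2, Kyat1 and Ldha in each of the 12 livers, with 1 symbol per liver and the mean ± SD (n = 3) as lines. Perfused livers lie below unperfused livers throughout for Mdh2 (134 to 178 against 180.1 to 261 CPM) and Ldha (872 to 1055 against 1328 to 2218 CPM), and HOPE liver 2 overlaps for Kyat1.

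For genes known to be induced by glucocorticoids like Tat, 8 of 8 tested had a positive log2 fold change in perfused against unperfused livers, with a median of 0.50 beside 0.030 over all genes, and 0 passed the adjusted threshold of edgeR (2 of 8 had an unadjusted p under 0.05, beside 17.7% of all genes). Of all genes 45.3% had a negative value in this comparison. The smallest p-values were those of Dusp1, a phosphatase of MAP kinases (0.74, edgeR adjusted p = 0.133), and Sgk1, a kinase (0.72, edgeR adjusted p = 0.143). The level of Sgk1 was 24.7, 41.7 and 53.5 CPM in HOPE livers, 45.4, 37.0 and 39.6 CPM in HMP livers, 41.2, 19.4 and 49.9 CPM in SCS livers and 16.2, 14.7 and 18.0 CPM in WI livers. The WI livers were below all others, while 2 of 3 SCS livers lay in the range of perfused livers. In the pairs of groups the 8 genes were less uniform. HOPE 1 h had 7 positive and 1 negative value against SCS 4 h and against WI 30 min, and HMP 1 h had 8 positive against each. HOPE 1 h against HMP 1 h, and SCS 4 h against WI 30 min, each had 3 positive and 5 negative values. Tsc22d3 averaged 60.8 CPM in HOPE 1 h and 95.4 CPM in WI 30 min, with 17.9 CPM in SCS liver 1 and 197 CPM in HMP liver 2.

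No enzyme listed from the routes of Tat and Agxt was called by edgeR in any of the 7 comparisons. The 5 enzymes of tyrosine breakdown had a median of −0.10 in perfused against unperfused livers, beside 0.030, with 1 positive and 4 negative values and 0 called (0 at an unadjusted p under 0.05), led by Hgd (−0.33, edgeR adjusted p = 0.319) and Hpd (0.24, edgeR adjusted p = 0.589). The 5 genes of glyoxylate handling had a median of −0.024 there with 0 called (1 at an unadjusted p under 0.05, beside 17.7% of all genes). They were led by Pxmp2 (−0.25, edgeR adjusted p = 0.259) and Hao1 (−0.23, edgeR adjusted p = 0.381). In HOPE 1 h against SCS 4 h, where Agxt had −0.84, 5 of these 5 were negative, with a median of −0.25 beside 0.038 over all genes, of which 44.9% were negative. In SCS 4 h against WI 30 min 5 of 5 were positive (median 0.33, beside 0.014), and in HOPE 1 h against WI 30 min 2 were positive and 3 negative (median −0.0056, beside 0.023). Of all genes 47.7% were negative in SCS 4 h against WI 30 min and 46.7% in HOPE 1 h against WI 30 min. Hao1, the glycolate oxidase that makes glyoxylate in peroxisomes, had 306, 321 and 330.2 CPM in HOPE livers, 267, 312 and 432 CPM in HMP livers, 465, 405 and 471 CPM in SCS livers and 326, 274 and 388 CPM in WI livers. SCS livers did not overlap HOPE or WI livers, while HOPE and WI livers overlapped. The log2 fold change was −0.48 in HOPE 1 h against SCS 4 h (edgeR adjusted p = 0.367), −0.046 in HOPE 1 h against WI 30 min and 0.44 in SCS 4 h against WI 30 min (edgeR adjusted p = 0.962), so that no value passed the threshold.

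Hepatocytes near the portal vein and near the central vein hold different enzymes, and genes of both zones were listed. The 6 periportal genes had a median of 0.094 in perfused against unperfused livers, beside 0.030, with 4 positive and 2 negative values and 0 called (0 at an unadjusted p under 0.05, beside 17.7% of all genes). The smallest p-values were those of the 2 negative genes, Gls2 (−0.30, edgeR adjusted p = 0.321) and Ass1 (−0.31, edgeR adjusted p = 0.486). The 6 pericentral genes had a median of −0.21, with 2 positive and 4 negative values and 0 called (1 at an unadjusted p under 0.05, beside 17.7% of all genes). They were led by Rhbg, an ammonium transporter (−0.58, edgeR adjusted p = 0.199), and Lgr5 (−0.52, edgeR adjusted p = 0.673). Lgr5 was barely detected, from 0.0571 CPM in HMP liver 1 to 0.937 CPM in HMP liver 2.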

How the data were processed

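Tissue RNA of 12 rat livers, 3 per group as labelled, was sequenced by the authors, who aligned paired-end reads with Hisat2 and assembled them with StringTie on build Rnor_6.0. The counting tool and its strand setting were not given in the sources used here, and raw counts per gene and the authors' FPKM per liver are in the deposited table. The authors' group means, log2 fold changes and p-values in the deposited table were not used.

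Counts were analysed with edgeR 4.0.16 (limma 3.58.1, R 4.3.3): filterByExpr, TMM, 1 mean per group over all 12 livers (8 residual degrees of freedom), quasi-likelihood F test and Benjamini-Hochberg adjustment over 13687 genes, called under 0.05. Log2 CPM used a prior count of 2. P-values measure the spread between these livers. The script was tested on simulated data for HOPE 1 h against SCS 4 h. There edgeR called 4.48% of genes changed 1.5-fold, 43.3% of those changed 2-fold and 74.2% of those changed 4-fold, with 6 false calls. Alternatives were RLE, DESeq2 1.42.0, no filter, the compared groups alone, a replicate block, and leaving out single livers or both livers that stood apart.

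The members and lists were chosen with earlier results of these data known. All 6 members are named, the 3 most like genes by Pearson r (for Got1 and Gpt2 1 of the 3 is not reported here), and from each list the called genes or otherwise the 2 with the smallest p. Mdh1 is named outside this rule, after its values were seen. RefSeq promoters on GRCr8 matched 5 of the 6 genes by symbol (not Gpt).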

Additional observations from a re-analysis of the deposited data

How the results depend on the processing

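Of 750 recomputed log2 fold changes (42 results), 738 kept their direction, or changed sign by less than 1 standard error, and stayed on their side of the threshold. In all, 33 of the 750 changed sign, 8 of them by more than 1 standard error, and 4 values passed the threshold that the main fit had not passed. Over the fits that each left out 1 liver, Gpt2 ran between −0.074 and 0.75 in HOPE 1 h against HMP 1 h (lowest without HMP liver 1), between −0.38 and 0.44 in HMP 1 h against SCS 4 h (lowest without HMP liver 2), and between −0.73 and 0.081 in HMP 1 h against WI 30 min (highest without HMP liver 1). Without both livers that stood apart Gpt2 was −0.094 in HOPE 1 h against HMP 1 h and 0.082 in HMP 1 h against WI 30 min. Got1 ran between −0.068 (without HOPE liver 2) and 0.51 in HOPE 1 h against WI 30 min. In SCS 4 h against WI 30 min, Gpt ran between −0.12 (without SCS liver 2) and 0.41 and Tat between −0.067 (without SCS liver 3) and 0.61. With DESeq2 the members called were 1 in HOPE 1 h against SCS 4 h (Got2, −0.45, adjusted p = 0.0119), 1 in HMP 1 h against SCS 4 h (Got2, −0.39, adjusted p = 0.0318) and 2 in perfused against unperfused livers (Got2, −0.32, adjusted p = 0.00385, and Agxt, −0.58, adjusted p = 0.0449). The cause was not tested. Every other alternative called 0 members, leaving out each liver included (0 to 0).

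Over all genes, perfused against unperfused livers had 140 called genes, 757 with DESeq2, 197 with no filter, 66 with the replicate block, 61 without both livers that stood apart, and 0 without HOPE liver 1 or without HOPE liver 3. The pairs of groups had 0 in the main fit, and DESeq2 called 19 (HOPE 1 h against HMP 1 h), 204 (HOPE 1 h against SCS 4 h), 97 (HOPE 1 h against WI 30 min), 433 (HMP 1 h against SCS 4 h), 390 (HMP 1 h against WI 30 min) and 15 (SCS 4 h against WI 30 min). Some other edgeR fits also called genes in the pairs. The largest count for HMP 1 h against WI 30 min was 46, without both livers that stood apart. For HMP 1 h against SCS 4 h it was 36, without HMP liver 1. For HOPE 1 h it was 8 against WI 30 min (no filter), 5 against SCS 4 h (compared groups alone) and 2 against HMP 1 h (without HOPE liver 1). Equal replicate numbers did not pair the livers: deviations of same-numbered livers had r between −0.189 and 0.143 over 18 pairs, and −0.225 to 0.329 over 36 pairs of other numbers. With the replicate block 0 members were called, Mdh2 had an adjusted p of 0.0691 in edgeR, and Kyat1 (0.0396) and Ldha (0.0284) stayed called. The fit on the compared groups alone was not run for perfused against unperfused livers, which use all groups. With 3 livers a group, differences inside the printed intervals could not be told from spread.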
